A study of Arabidopsis thaliana with 8 samples.

Results

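The transcripts described here were higher after a short exposure of dark-grown Arabidopsis seedlings to red light. In seedlings grown on lincomycin they were at about the same level before and after the light, and after the light they were lower than without lincomycin. They were chosen by their measured values. A member is a probe set, the group of short probes on the array that reads a single transcript, that met 4 conditions on log2 intensity. The mean of the red arrays was 0.8 or more above the mean of the dark arrays. Both red arrays were above both dark arrays. On lincomycin, the red and dark means lay within 0.3 of each other. After red light, the mean with lincomycin was 0.5 or more below the mean without it. Of 22746 probe sets, 31 met these conditions. Of these, 3 were left out by definition, the plastid gene psbC and the nuclear photosystem genes PSBY and LHCB4.2, which left 28 members. Exactly 1 gene was listed for 13 members and none for the other 15, which are given by probe set ID. Probe sets with no listed gene could not be checked against the genes that the rule leaves out.

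The 8 Affymetrix arrays carried labelled total RNA of whole wild type Col-0 seedlings, 4 days old and grown in darkness on Murashige Skoog medium with sucrose. The dark group (2 arrays) was collected without light and the red group (2 arrays) after 30 min of red light, and neither had lincomycin. Their counterparts on medium with lincomycin, the dark lincomycin and red lincomycin groups, have 2 arrays each and were otherwise grown in the same way. The labels state the lincomycin dose both as 220 µg/ml and as 200 µg/ml. Values are RMA intensities, a background-corrected and normalised brightness without a unit, and changes are differences of group means of log2 intensity. The standard error (SE) is that of a limma fit over all 8 arrays, with 2 arrays in each group. Since RNA came from whole seedlings, fewer cells of a type and less RNA per cell cannot be told apart.

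Red light is sensed by phytochromes, photoreceptors that move to the nucleus when activated and remove the PIF transcription factors, which hold back the light programme in darkness. Many nuclear genes for the chloroplast are induced within this early phase. Lincomycin blocks protein synthesis on plastid ribosomes, and plastids impaired in this way are known to send signals that lower the expression of nuclear genes for photosynthesis. Whether the light response of a gene is altered when plastid protein synthesis is blocked is the question that the 4 groups address together.

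Some arrays stood apart. The ratio of the 3' to the 5' actin control probe sets, a measure of RNA integrity, was 41.2-fold on replicate 1 of the dark group and between 2.24-fold and 3.67-fold on the other 7. The median intensity of the arrays ran from 32.0 to 36.1. Relative to each member's mean over the 8 arrays, the median over the 28 members was -0.61 (log2) on replicate 1 of the dark group and -0.31 on replicate 2. It was 0.89 on replicate 1 of the red group and 0.43 on replicate 2. On the 4 lincomycin arrays it ran from -0.13 to -0.06. Replicate 1 of the red group was above replicate 2 for 27 of the 28 members, and replicate 1 of the dark group was below replicate 2 for 19. In the dark group the replicates were over 1 log2 unit apart for 6 members, against 1 in the red group and 0 in each lincomycin group. The part of the actin ratio and of these replicate differences in the members' pattern was not tested, but the rule was also applied with each array left out, as given further on.

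**Figure D1:**
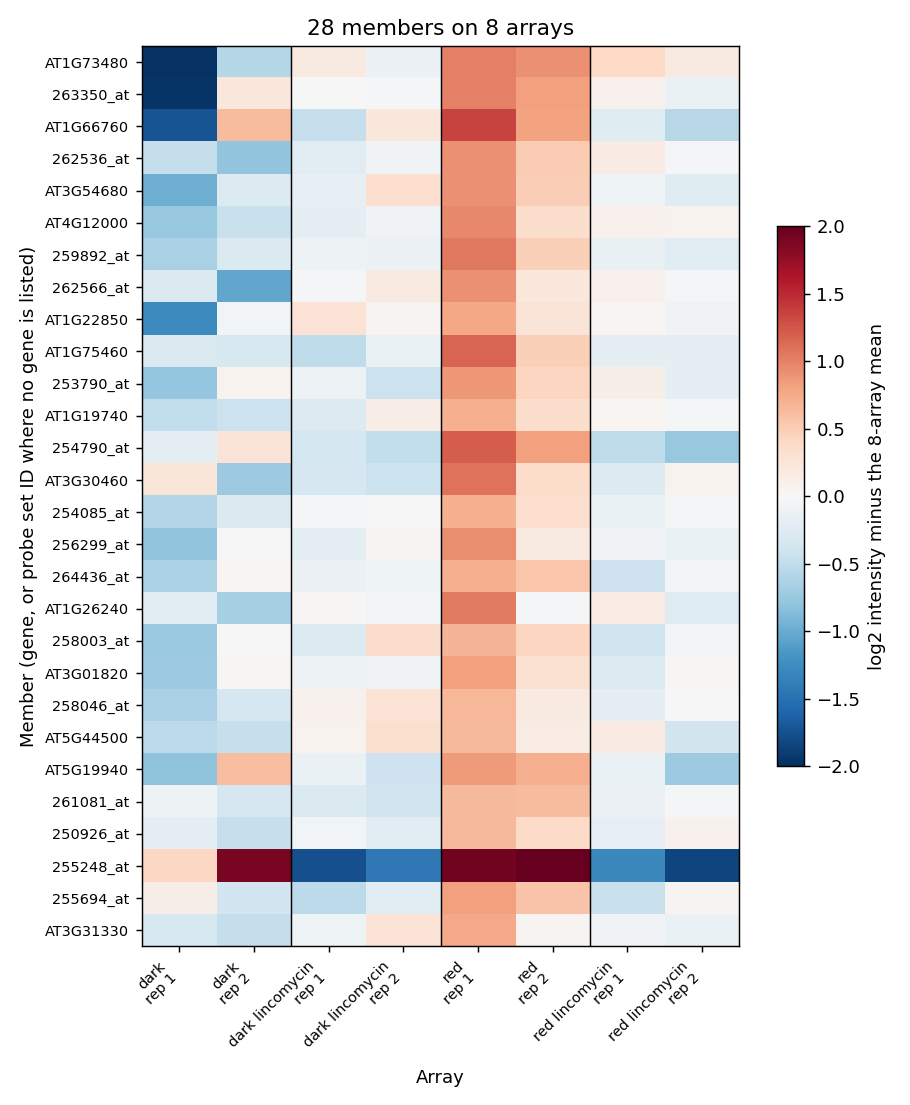
Heat map of the 28 members (rows, ordered by their change in red light without lincomycin) on the 8 arrays (columns, 2 per group). Colour is log2 intensity minus the member's mean over the 8 arrays. The red columns are the highest, with a median of 0.89 on replicate 1 and 0.43 on replicate 2, and the lincomycin columns are near 0.

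By the rule, all 28 members were higher after red light without lincomycin and stayed within the limits on lincomycin. Their change in red light had a median of 0.96 and ran from 0.81 to 2.23 without lincomycin. On lincomycin the median was -0.04, from -0.30 to 0.28, with 11 members above 0 and 17 below. After red light, the lincomycin seedlings were lower by a median log2 difference of -0.68, from -3.56 to -0.50. The median over all probe sets was near 0 for these 3 comparisons, at 0.00, 0.00 and -0.01. These values chose the members, so they are a description and carry no test. In the limma fit 0 members were called at an adjusted p under 0.05 in red light without lincomycin, where 0.189% of all probe sets were called, and 26 were higher with an unadjusted p under 0.05 (5.44% of all). In red light on lincomycin 0 were called and 0 had an unadjusted p under 0.05, against 0.0615% and 3.85% of all probe sets. For lincomycin after red light 0 were called against 0.0264% of all, and 18 were lower with an unadjusted p under 0.05 against 3.84% of all. For the interaction, the light change on lincomycin minus that without, 0 were called against 0.0% of all, and 19 were below 0 with an unadjusted p under 0.05 against 3.87% of all. Since the rule used these comparisons, nothing is read from these counts.

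Of the genes whose products are placed in membranes, AT1G66760, an efflux transporter of the MATE family, had intensities of 48.6 and 250.3 on the dark arrays and 409 and 281 on the red arrays. With lincomycin it stood at 117 and 187 in darkness and, after the light, at 137 and 109. The dark replicates were far apart, and the second lay near the lower red array. Its change in red light was 1.62 ± 0.68 (log2, SE) without lincomycin and -0.28 on lincomycin, and after red light it was 2.77-fold lower with lincomycin than without. The gene did not meet the rule without replicate 1 of the dark, the dark lincomycin or the red lincomycin group, or with the array medians set equal.

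AT4G12000, a protein of the SNARE-associated Golgi family, was at 66.7 and 82.6 in the dark group and at 219 and 145 in the red group. The dark lincomycin arrays gave 100.2 and 107, and the red lincomycin arrays 119 and 119. The groups did not overlap, and both lincomycin groups lay between the dark and the red arrays. The change in red light was 1.26 ± 0.22 without lincomycin and 0.20 on it.

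AT1G22850 belongs to the same family of membrane proteins as AT4G12000. Intensities were 69.6 and 161 on the dark arrays, 286 and 199.9 on the red arrays, 204 and 175 on the dark lincomycin arrays, and 172 and 160.1 on the red lincomycin arrays. The lower red array stood below the higher dark lincomycin array, so those groups overlapped. Both red lincomycin arrays were below both dark lincomycin arrays. Its red mean was 2.26-fold the dark mean without lincomycin and 0.878-fold on lincomycin. Leaving out the low reading, replicate 1 of the dark group, lowered the log2 light change without lincomycin from 1.175 to 0.57. The gene then no longer met the rule. It also did not meet the rule without replicate 1 of the red group. The same held without replicate 2 of the dark lincomycin or of the red lincomycin group.

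Among genes of protein turnover, AT1G75460 and AT1G19740 both encode proteins with the substrate-binding domain of LON-type ATP-dependent proteases, and they were the only named members of that family. AT1G75460 had 24.6 and 24.1 in the dark group and 67.1 and 41.6 in the red group. On lincomycin it read 21.0 and 27.3 in darkness and, once red light was given, 26.2 and 26.4. The red arrays were thus above the other 6 arrays, which lay close together. The change in red light was 1.12 ± 0.24 without lincomycin and 0.14 on it, and the lincomycin change in darkness was -0.03. AT1G75460 did not meet the rule without replicate 1 of the red group or without replicate 2 of the dark lincomycin group.

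AT1G19740 gave 46.9 and 49.1 on the dark arrays, 108 and 85.0 on the red arrays, 54.9 and 72.9 on the dark lincomycin arrays, and 67.8 and 65.0 on the red lincomycin arrays. Here lincomycin arrays lay above the dark arrays and below the red ones. The change in red light was 1.00 ± 0.19 without lincomycin and 0.07 on it. AT1G19740 did not meet the rule without replicate 1 of the red group or without replicate 2 of the red lincomycin group. Each of the genes had a single probe set, and whether the probes of each gene also bind the transcript of the other was not examined here.

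AT3G30460, a RING finger protein of the kind that acts in ubiquitin ligases, was dim, with 31.1 and 15.9 in the dark group and 55.7 and 33.8 in the red group. With lincomycin it was at 20.8 and 19.5 in darkness and, after the light, at 21.7 and 27.5. The lower red array was close to the higher dark array. Its change in red light was 0.96 ± 0.35 without lincomycin and 0.28 on it, the highest on lincomycin of the 28 members. The change without lincomycin was 0.48 without replicate 2 of the dark group and 0.60 without replicate 1 of the red group. The gene met the rule in neither case, nor without replicate 1 of the dark lincomycin or of the red lincomycin group.

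AT1G73480, an alpha/beta hydrolase of the monoacylglycerol lipase type, had the largest light change of the members. Its intensities were 21.5 and 56.7 on the dark arrays, 169.7 and 159 on the red arrays, 95.8 and 77.9 on the dark lincomycin arrays, and 111 and 95.3 on the red lincomycin arrays. Every lincomycin array lay above both dark arrays and below both red arrays. The red mean was 4.70-fold the dark mean without lincomycin and 1.19-fold on lincomycin. In darkness the change on lincomycin was 1.31 ± 0.40 (adjusted p = 0.152 in limma). Both this change and the light change without lincomycin rest on the dark arrays, where replicate 1 minus replicate 2 was -1.40 (log2). Without replicate 1 of the dark group the light change was 1.53 in place of 2.23, and without replicate 2 it was 2.93. The gene met the rule in both cases. It did not without replicate 1 of the dark lincomycin group or replicate 2 of the red lincomycin group.

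AT5G19940, of the plastid-lipid associated fibrillin family, was among the brighter named members. The dark arrays read 222 and 593 and the red arrays 697 and 636. On lincomycin the values were 354 and 290.3 in darkness and, after the light, 354 and 234. Replicate 2 of the dark group was close to the red arrays, and the light change was 0.88 ± 0.43. After red light the gene was 2.31-fold lower with lincomycin than without, and no red lincomycin array reached a red array. The gene did not meet the rule without replicate 1 of the dark group or without replicate 1 of the red lincomycin group.

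AT5G44500, which encodes a core Sm protein of the spliceosome, had 27.9 and 29.6 in the dark group and 64.1 and 45.1 in the red group. Intensities with lincomycin were 42.8 and 50.8 in darkness and, after the light, 45.7 and 31.5. The red arrays overlapped with both lincomycin groups. The gene lay just inside 2 limits of the rule, at -0.30 in red light on lincomycin and -0.50 for lincomycin after red light, and it no longer met the rule with the array medians set equal or with quantile normalization.

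AT3G01820, an adenylate kinase-like nucleotide-binding protein, was at 24.8 and 41.7 on the dark arrays, 72.5 and 50.5 on the red arrays, 37.9 and 38.9 on the dark lincomycin arrays, and 33.8 and 41.3 on the red lincomycin arrays. Both red arrays were above the other 6. The change in red light was 0.91 ± 0.28 without lincomycin and -0.04 on it. Without replicate 1 of the dark group it was 0.54, and the gene met the rule neither without that array nor without replicate 1 of the red group.

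AT1G26240, a proline-rich extensin-like protein of the cell wall, had 18.8 and 13.7 on the dark arrays, 44.6 and 21.1 on the red arrays, 22.1 and 21.0 on the dark lincomycin arrays, and 24.0 and 18.1 on the red lincomycin arrays. Only replicate 1 of the red group stood above the lincomycin arrays, and without it the gene did not meet the rule.

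AT3G54680 had 34.8 and 56.7 on the dark arrays, 130.1 and 96.4 on the red arrays, 61.6 and 87.2 on the dark lincomycin arrays, and 65.1 and 58.0 on the red lincomycin arrays. Its red arrays were above all others, and its interaction was -1.59 ± 0.40. AT3G54680 did not meet the rule without replicate 1 of the dark lincomycin or of the red lincomycin group. AT3G31330, listed as a pseudogene in RefSeq, was the dimmest member. Its intensities were 7.54 and 6.70 on the dark arrays, 15.9 and 9.75 on the red arrays, 8.80 and 11.3 on the dark lincomycin arrays, and 8.87 and 8.57 on the red lincomycin arrays. It was the 1 member in the lowest 20% of probe sets by mean level, and its probe set is of a type that can match several transcripts. Its light change of 0.81 was 0.46 without replicate 1 of the red group and 0.24 with values raised to the 20th percentile, and it then did not meet the rule.

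**Figure D2:**
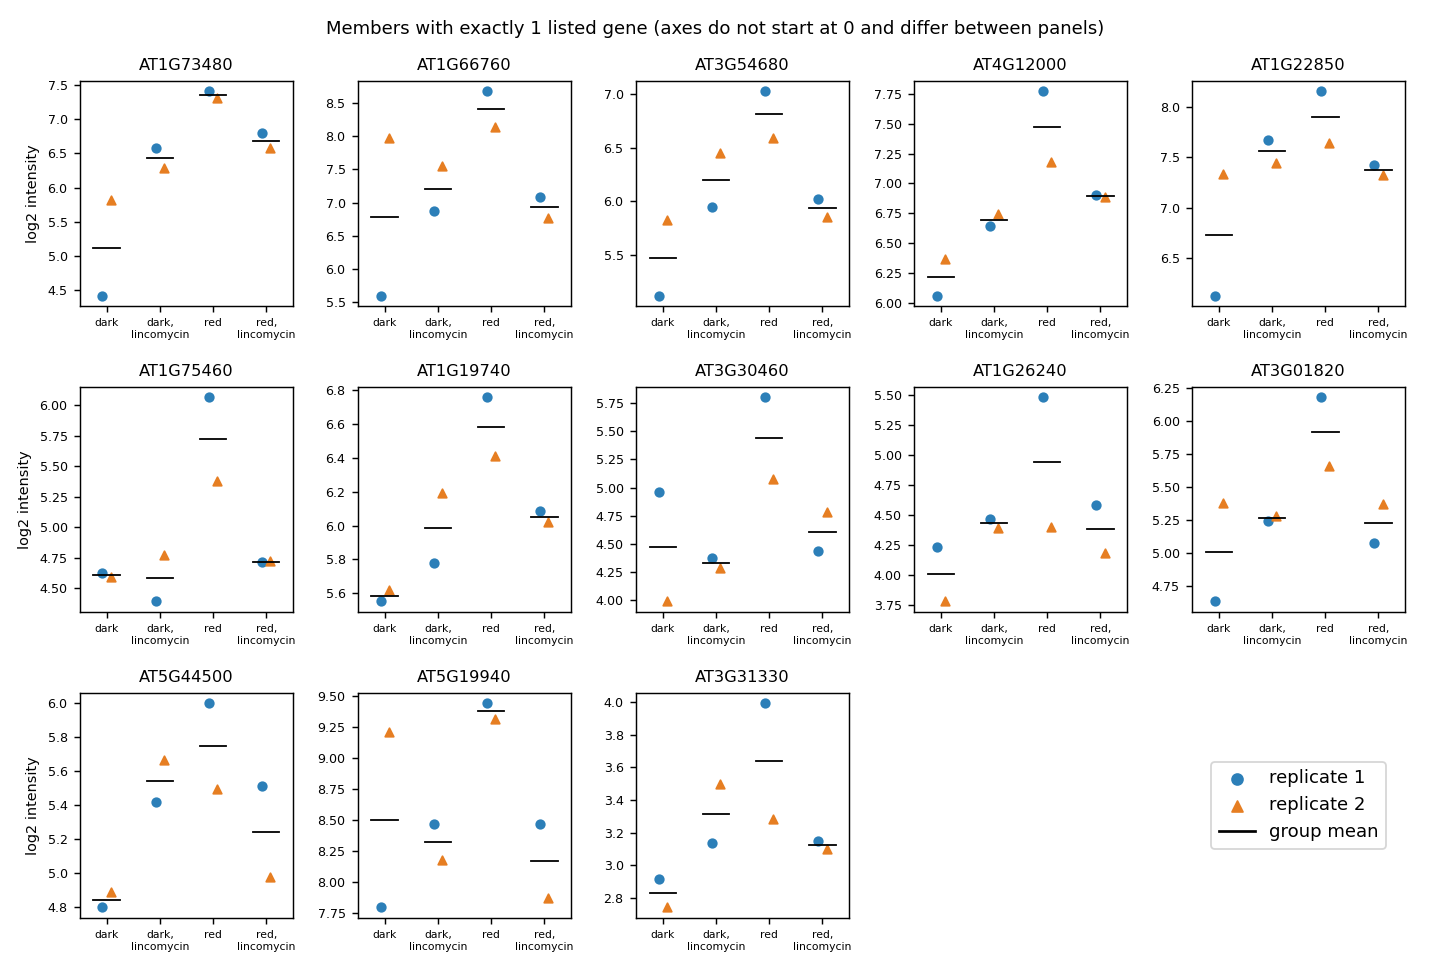
Log2 intensity (vertical axis, not starting at 0 and different in each panel) of the 13 members with exactly 1 listed gene in the 4 groups. Points are arrays, circles replicate 1 and triangles replicate 2, and bars are group means. In AT1G75460 the red arrays (67.1 and 41.6 in intensity) stand above 6 arrays between 21.0 and 27.3, while in AT1G66760 the dark arrays (48.6 and 250.3) are far apart.

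The members with no listed gene included the brightest. The probe set 259892_at had 513 and 661 on the dark arrays, 1678 and 1117 on the red arrays, 746 and 737 on the dark lincomycin arrays, and 723 and 689 on the red lincomycin arrays. Replicates on lincomycin were within a few percent of each other, both red arrays were above all others, and this was the 1 member that met the rule whichever array was left out. Its red mean was 2.35-fold the dark mean without lincomycin and 0.952-fold on lincomycin.

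The probe set 254790_at was at 657 and 896 on the dark arrays, 1733 and 1328 on the red arrays, 589 and 535 on the dark lincomycin arrays, and 528 and 445 on the red lincomycin arrays. Unlike 259892_at it was lower on lincomycin in darkness as well, with no overlap between those groups. After red light it was 3.13-fold lower with lincomycin, a change of -1.65 ± 0.21.

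The probe set 255248_at stood apart from all other members. It had 163 and 456 on the dark arrays and 467 and 507 on the red arrays, but 36.2 and 45.3 on the dark lincomycin arrays and 49.8 and 34.0 on the red lincomycin arrays. Lincomycin thus went with a low level in darkness (-2.75 ± 0.44) and after red light (-3.56 ± 0.44, 11.8-fold lower). It was the 1 member called in darkness in the limma fit (adjusted p = 0.0484), a call that was lost under several alternatives, the replicate block among them. Its light change of 0.84 rested on replicate 1 of the dark group, since replicate 2 was close to the red arrays. The probe set did not meet the rule without that replicate 1 or without replicate 2 of the red group.

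The probe set 263350_at had 107 and 486 on the dark arrays, 836 and 739 on the red arrays, 415 and 409 on the dark lincomycin arrays, and 445 and 379 on the red lincomycin arrays. Its lincomycin arrays were alike in darkness and light, with a light change of 0.00 there. The low reading of replicate 1 of the dark group set most of its light change of 1.78 ± 0.59 without lincomycin, and without that array it did not meet the rule. The remaining 11 unnamed members changed by 0.83 to 1.34 in red light without lincomycin and were 1.44-fold to 1.85-fold lower on lincomycin after red light.

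**Figure D3:**
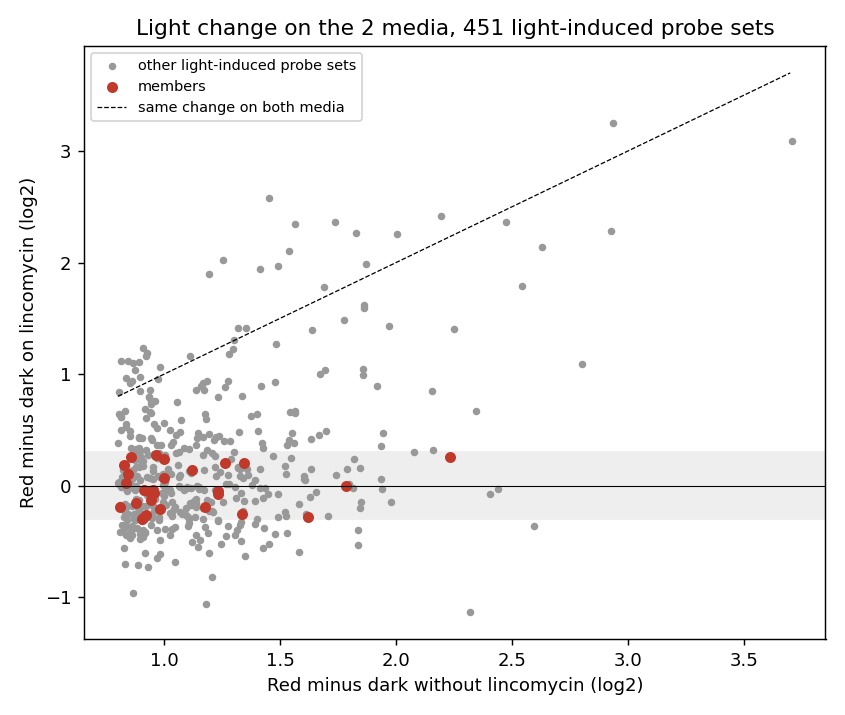
Change in red light (log2, red minus dark) without lincomycin (horizontal axis) and on lincomycin (vertical axis) for the 451 probe sets that met the first 2 conditions. Red points are the 28 members, which lie inside the grey band of 0.3 around 0, and the dashed line marks equal change on both media.

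The members were a small part of the light response without lincomycin. Of 451 probe sets that met the first 2 conditions, 234 (51.9%) were within 0.3 of 0 in red light on lincomycin, 72 were below -0.3 and 66 were at 0.8 or more. Of the 234, 203 did not meet the last condition, that of a level 0.5 or more lower on lincomycin after red light. On lincomycin in darkness the 203 had a median of 104% of the way from the dark mean to the red mean, against 36.0% for the 28 members, which were at 33.6% after red light. The lincomycin change in darkness of the 203 had a median of 1.13, and 0.76 without replicate 1 of the dark group. That array was below replicate 2 for 176 of the 203. The limits that define the 203 and the members fix, by arithmetic, that this change is above 0 for each of the 203, and that for each member it is smaller than the light change, so these values only describe the sets.

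The rule does not name the change on lincomycin in darkness, but its value follows from the changes that the rule does name. In darkness the members had a median change of 0.40 on lincomycin, from -2.75 to 1.31, against -0.01 over all probe sets. Of the 28, 21 were above 0 and 7 below. The mean of the dark lincomycin group lay between the dark and red means for 21 members, nearer the dark mean for 14 and nearer the red mean for 7, and it was below the dark mean for the other 7. Both dark lincomycin arrays were above both dark arrays for 13 members (46.4%), where 23.1% of all probe sets had no such overlap. For 2 members (254790_at and 255248_at) they were below both, where 25.6% of all probe sets were. In limma 1 member was called, 255248_at, against 0.98% of all probe sets, while 7 were higher with an unadjusted p under 0.05 (7.6% of all probe sets) and 1 was lower (10.5%). The call of 255248_at was lost with low values raised to a floor, with the replicate block, with only the arrays compared and with any of 6 single arrays left out. None of these values is independent of the rule. Without replicate 1 of the dark group the median fell from 0.40 to 0.20, and without replicate 2 of the dark lincomycin group it was 0.26.

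**Figure D4:**
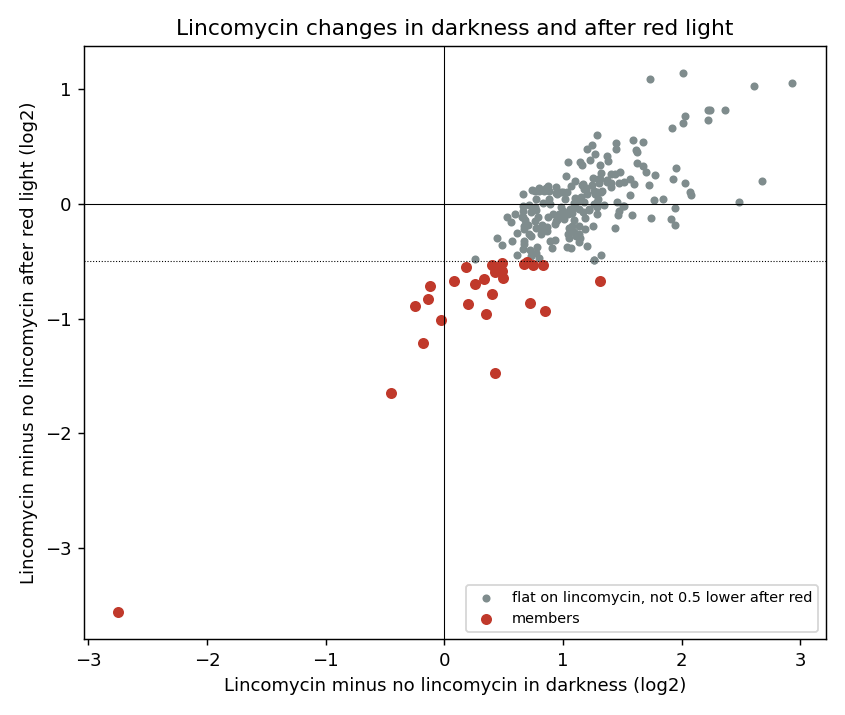
Lincomycin change in darkness (horizontal axis) against lincomycin change after red light (vertical axis), both log2 with minus without lincomycin, for the 28 members (red) and the 203 probe sets that were flat in red light on lincomycin but not 0.5 lower after red light (grey). The dotted line is the limit of -0.5 in the rule. The limits of the selection place all grey points to the right of 0, and the members run from -2.75 to 1.31 on the horizontal axis.

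Other overlaps follow in part from the limits of the rule, and nothing is read from them. Both red arrays were above both red lincomycin arrays for 26 of the 28 members (20.5% of all probe sets), the exceptions being AT1G26240 and AT5G44500. Both red arrays were above all other 6 arrays for 23 members (3.09% of all probe sets). The 5 others were AT1G22850, AT1G26240, AT3G31330, AT5G44500 and 258046_at. On lincomycin both red arrays were above both dark arrays for 4 members (21.7% of all probe sets) and below them for 4 (22.9%).

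The members that the rule left out by name followed the same course, as the rule requires. PSBY, a small photosystem II protein, had 431 and 513 on the dark arrays, 949 and 952 on the red arrays, 579.9 and 609 on the dark lincomycin arrays, and 644 and 518 on the red lincomycin arrays. LHCB4.2, an antenna protein, changed by 1.38 in red light without lincomycin and 0.01 on it, and psbC by 1.80 and 0.02.

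The members and other probe sets with exactly 1 listed gene nearest to each limit were as follows, and unnamed members can lie nearer. At the limit of 0.8 for red light without lincomycin, AT3G31330 (0.81) and AT5G19940 (0.88) were inside, and AT5G19875 (0.79) and PSB27 (0.72), an assembly factor of photosystem II, were outside. At the upper limit of 0.3 in red light on lincomycin, AT3G30460 (0.28) and AT1G73480 (0.25) were inside and AT5G08050 (0.41) and AT1G14345 (0.48) outside. At the lower limit of -0.3, AT5G44500 (-0.30) and AT1G66760 (-0.28) were inside and AT4G09580 (-0.32) and AT3G52240 (-0.35) outside. At the limit of -0.5 for lincomycin after red light, AT5G44500 (-0.50) and AT3G31330 (-0.51) were inside and AT4G09560 (-0.45) and AT3G07350 (-0.44) outside.

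Single arrays decided which probe sets met the rule. Without replicate 1 of the red group, 51 probe sets met it, and 9 of the 28 members were among them. Without replicate 2 of the red group, 165 met it, 27 of them members. When replicate 1 of the dark group was omitted, 32 probe sets met it with 16 of the members, and omitting replicate 2 gave 55 with 22. Leaving out an array of the lincomycin groups gave between 21 and 32 probe sets, with 16 to 25 of the members. Only 259892_at met the rule in all 8 cases, and 3 members met it in 7, AT4G12000, 254085_at and 263350_at. At the other end 258046_at met it in 3 and 7 members in 4, AT5G44500, AT3G31330, AT3G30460 and AT1G22850 among them. Taken array against array, the members' median difference between replicate 1 of the red group and replicate 1 of the dark group was 1.41, and 26 of 28 were at 0.8 or more. Between replicate 2 of each it was 0.61, with 8 of 28 at 0.8 or more and all 28 above 0, as the second condition requires.

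**Figure D5:**
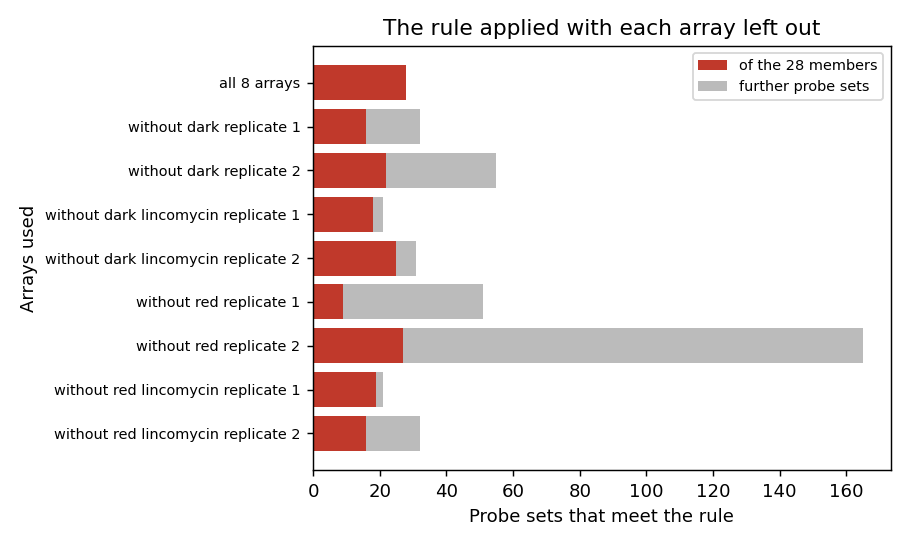
Number of probe sets that met the rule (horizontal axis) with all 8 arrays and with each array left out in turn (rows). The red part of a bar counts those among the 28 members and the grey part the others. Without replicate 1 of the red group 9 of the 51 probe sets are members, and without replicate 2 of that group 27 of 165.

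None of the 13 named members was on the lists of light signalling, clock, tetrapyrrole, photosynthesis, flavonoid, stress or cell type marker genes. Few genes on these lists had a named probe set. The 15 members with no listed gene could not be matched to a list. The rule itself also left out genes for photosynthesis, so nothing is read from this absence. The lists do not hold LHCB4.2, PSBY and PSB27, given above, nor the clock gene GI (1.11 in red light without lincomycin and 0.11 on it), so their medians leave out genes that were higher after red light. A list gene is called measured here where a probe set has it as the only listed gene. Other genes of the lists may be read by probe sets with no listed gene. Of 49 nuclear photosynthesis genes 7 were measured. Their median was 0.07 in red light without lincomycin and 0.05 in red light on it. It was -0.87 for lincomycin in darkness and -0.76 for lincomycin after red light. All 7 were below 0 in both lincomycin comparisons, and 3 fell in darkness in the limma fit (0.98% of all probe sets were called in either direction), the photosystem I genes PSAE-1 (-2.01) and PSAN (-1.08) and the Calvin cycle gene PRK (-1.43). Of 17 tetrapyrrole genes 4 were measured (medians of -0.24, -0.18, -0.69 and -0.82 in the same order), of 34 light signalling genes 2 (-0.26, 0.05, -0.39 and -0.08), and of 13 flavonoid genes 4 (0.05, 0.17, -0.07 and -0.06), with 0 called in limma in these 3 lists. Of the 9 clock, 7 stress, 4 root ground tissue and 3 shoot epidermis genes 0 had a named probe set, so those tissues could not be checked against their markers.

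The root hair list had medians with the same signs as the members in all 4 comparisons. The rule set or limited the members' values, and their median in red light on lincomycin was near 0 (-0.04), so nothing is read from this. Of the 9 genes on the list 3 were measured, the expansins EXPA7 and EXPA18 and the peroxidase gene AT4G26010. The median of the 3 was 0.63 in red light without lincomycin and -0.36 on lincomycin. Lincomycin gave 0.59 in darkness and -0.40 after red light, and 0 of the 3 were called in limma in any comparison. EXPA7 differed the most, by 1.14 in red light without lincomycin and -0.44 on it, while AT4G26010 was at 0.02 ± 0.28 in red light without lincomycin and at 0.02 for lincomycin in darkness, so the medians rest on the expansins. Summed over all 3 measured genes, AT4G26010 included, intensity was 115 and 172 on the dark arrays and 209.96 and 166 on the red arrays. The same sum was 158 and 209 on the dark lincomycin arrays and 172 and 129 on the red lincomycin arrays. No measured marker was at 0. The groups overlapped. The part of root hair cells in the members' pattern was not tested.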

How the data were processed

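The deposited values are intensities on the linear scale, 1 for each probe set on each array, which the authors made with RMA, per the submitters' processing notes. Its version is not given in the sources used here. After leaving out 64 control probe sets, log2 was taken of 22746 probe sets. The annotation supplied with the series lists exactly 1 gene for 13513 of them, several for 503 and none for 8730, and all 13 named members matched the RefSeq gene table. Group means were fitted over all probe sets and 8 arrays with limma 3.58.1 in R 4.3.3 (lmFit and eBayes, two-sided, no block), with Benjamini-Hochberg adjustment over all probe sets and calls at an adjusted p under 0.05. The fit was tested on simulated data. Tables and figures used Python 3.11.15, pandas 2.3.3, numpy 2.4.6 and matplotlib 3.10.9. Groups came from the labels. Nothing says that replicates came from separate cultures, so p-values reflect no more than the spread among these arrays, which may be technical, and the number of arrays limits precision.

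The members, the gene lists and the alternatives were chosen with earlier results of these data known. The rule for named genes took members with exactly 1 gene by size of light change, interaction and lincomycin change, members of the lists, and genes next to the limits of the conditions, which named all 13. Unnamed members were chosen for description after their values were seen. A further grouping by words in product names was planned but not made, since the tables used here carry no product names. Descriptions of gene products in the text are therefore background from outside these data. No sequences were used here. Alternatives were 2 other scalings, a filter on dim probe sets, a floor, another variance model, a replicate block, only the arrays compared, other limits in the rule, and leaving out each array.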

Additional observations from a re-analysis of the deposited data

Results flagged for a closer look

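For 4 members every red array was above every dark array without lincomycin while every red array was below every dark array on lincomycin. On lincomycin 22.9% of all probe sets were lower after red light without overlap, against 14.3% of the members. Another 4 members were higher without overlap (21.7% of all). Since the rule limits the members' light change on lincomycin, nothing is read from these shares. The rule fixed that the light changes differ between the media, so the sign of the difference is no result, and in limma the interaction of no member passed (lowest adjusted p = 0.336). The light change on lincomycin minus that without was -1.36 for AT1G22850, -1.30 for 259892_at, -1.20 for 258046_at and -1.19 for 254790_at. Of the 4, 259892_at met the rule whichever array was left out, 254790_at in 5 of the 8 cases, AT1G22850 in 4 and 258046_at in 3. No group had enough arrays for a search for single outlying arrays.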

How the results depend on the processing

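The number of probe sets that met the rule was 28, and 39 after shifting array medians, 34 after quantile normalization, 27 without the dimmest 30% and 28 with low values raised to the 20th percentile (25, 25, 27 and 27 of them members). It was 10 with a light change of 1.0 or more, 17 within 0.2 on lincomycin and 13 with a level 0.7 or more lower, and 21 to 165 with an array left out. Such fits take the spread of the remaining array from the other groups. Members called in red light without lincomycin numbered 2 after shifting medians and 0 to 16 with an array left out (16 without dark replicate 2). For lincomycin in darkness the count of 1 became 0 with the floor, 0 with the replicate block, 0 with only the arrays compared and 0 to 5 with an array left out. For lincomycin after red light the 0 called became 2 after shifting medians, 2 without the dimmest 30%, 2 with trend and robust eBayes, 1 with only the arrays compared and 0 to 2 with an array left out. For the interaction it was 0 to 6 with an array left out (6 without dark replicate 2), and in red light on lincomycin 0 to 0. With an array left out the median change of members ran from 0.80 to 1.24 in red light without lincomycin, -0.08 to 0.03 in red light on it, 0.20 to 0.53 for lincomycin in darkness, -0.94 to -0.46 for lincomycin after red light and -1.35 to -0.89 for the interaction. Of 775 values of named genes under alternatives, 75 moved by more than the replicate spread, 72 of them with an array left out. The sign was the other one for 13 values. No named member was called in any comparison over all 8 arrays, so a called change could not reverse. For the 203 probe sets flat on lincomycin and not lower, the median for lincomycin in darkness of 1.13 was 0.76 without dark replicate 1 and 1.49 without dark replicate 2, alternatives added after seeing the data. The cause of these moves was not tested. Replicate numbers pair the arrays only by label. Replicate differences of 2 groups correlated across probe sets at -0.33 (dark and red lincomycin) to 0.44 (dark and red). The latter are the groups of the light change without lincomycin. For the 2 lincomycin groups the correlation was 0.13. The replicate block changed no other count of members called. Leaving out the dimmest 30% removed AT3G31330. Signal over background was not tested.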
